A study of Homo sapiens
Mus musculus with 16 samples.

Results

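The expression of 45 genes that drive or carry out mitosis was followed in the tumour cells of ScaBER xenografts across 4 treatment groups. ScaBER is an established human bladder cancer cell line of squamous type. The 45 genes were taken by symbol from a list of mitotic genes that was chosen with earlier results of these data known. Counts set beside the share of all genes are therefore descriptions and not independent support. All 45 were found among the 23368 genes of the human-mapped table. All 45 also passed the filter on low values that left 17663 genes for testing. The tumours grew in Hsd:Athymic Nude-Foxn1nu mice, a strain that lacks a normal thymus and mature T cells, so every group, controls included, shares a host without T-cell immunity. The groups were vehicle (0.5% methylcellulose with 0.1% Tween80), nintedanib at 40 mg/kg, alpelisib at 25 mg/kg, and both drugs at those doses, each given for 14 days and each with 4 libraries, 16 in all. Nintedanib blocks the kinases of the VEGF, PDGF and FGF receptors, and alpelisib is a PI3K inhibitor selective for p110alpha. The tumours come from 1 cell line, and the labels do not say whether each library is its own animal, so p-values measure only the spread between these libraries, which may be technical.

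Cells enter mitosis when cyclin B activates the kinase CDK1, after phosphatases of the CDC25 family remove its inhibitory phosphates. Polo-like and Aurora kinases then build the spindle, kinetochores tie chromosomes to it, and the spindle checkpoint holds the cell until every chromosome is attached. CDC20 then switches on the anaphase-promoting complex, separase cuts cohesin, and the cell divides. Most of these genes are transcribed late in the cell cycle under FOXM1, B-MYB and the DREAM and MuvB complexes, so their summed RNA is widely read as a measure of how many cells divide.

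Values are normalized expression values, that is, whole reads divided by 1 size factor per library, and differences are on the log2(value + 1) scale. The libraries held 8303617 to 18568119 human reads, and the least covered mitotic gene, CENPA, had 33 reads in its lowest library. Together the 45 genes took 0.311% ± 0.0312 (SD, n = 4) of human reads with vehicle, 0.280% ± 0.00914 with nintedanib, 0.284% ± 0.0339 with alpelisib and 0.238% ± 0.0593 with both drugs. The squamous markers KRT5, KRT14, KRT6A, KRT17, TP63, DSG3, SFN and PKP1 were present in all 16 libraries and summed to 1.82% to 3.10% of human reads, with overlapping ranges in the 4 groups. The 6 blood and vessel markers summed to 0.00161% to 0.00369% of human reads. CD3E was at 0 in 10 libraries, CDH5 in 8 and PECAM1 in 1, whereas CD68 (169 to 515), PTPRC (3.40 to 82.5) and HBB (1.35 to 47.1) were above 0 in all 16. PTPRC, the leukocyte antigen CD45, had the largest difference of these markers with nintedanib, 1.78 ± 0.650 (SE) in log2 from vehicle (adjusted p 0.331, limma). The median over the 5 markers tested was 0.17, with PECAM1 at 0.48 ± 0.661, CD68 at 0.17 ± 0.279 and HBB at -0.55 ± 0.691. The part of these transcripts in the results was not tested. Skeletal muscle markers took 4.81% of mouse-mapped reads in nintedanib 4 and 3.06% in combination 1, against at most 0.745% elsewhere, so for the comparisons that use these libraries the median and the count of lower genes over the 45 are also given without them. In bulk tissue, fewer dividing tumour cells and less mitotic RNA per dividing cell cannot be told apart.

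**Figure D1:**
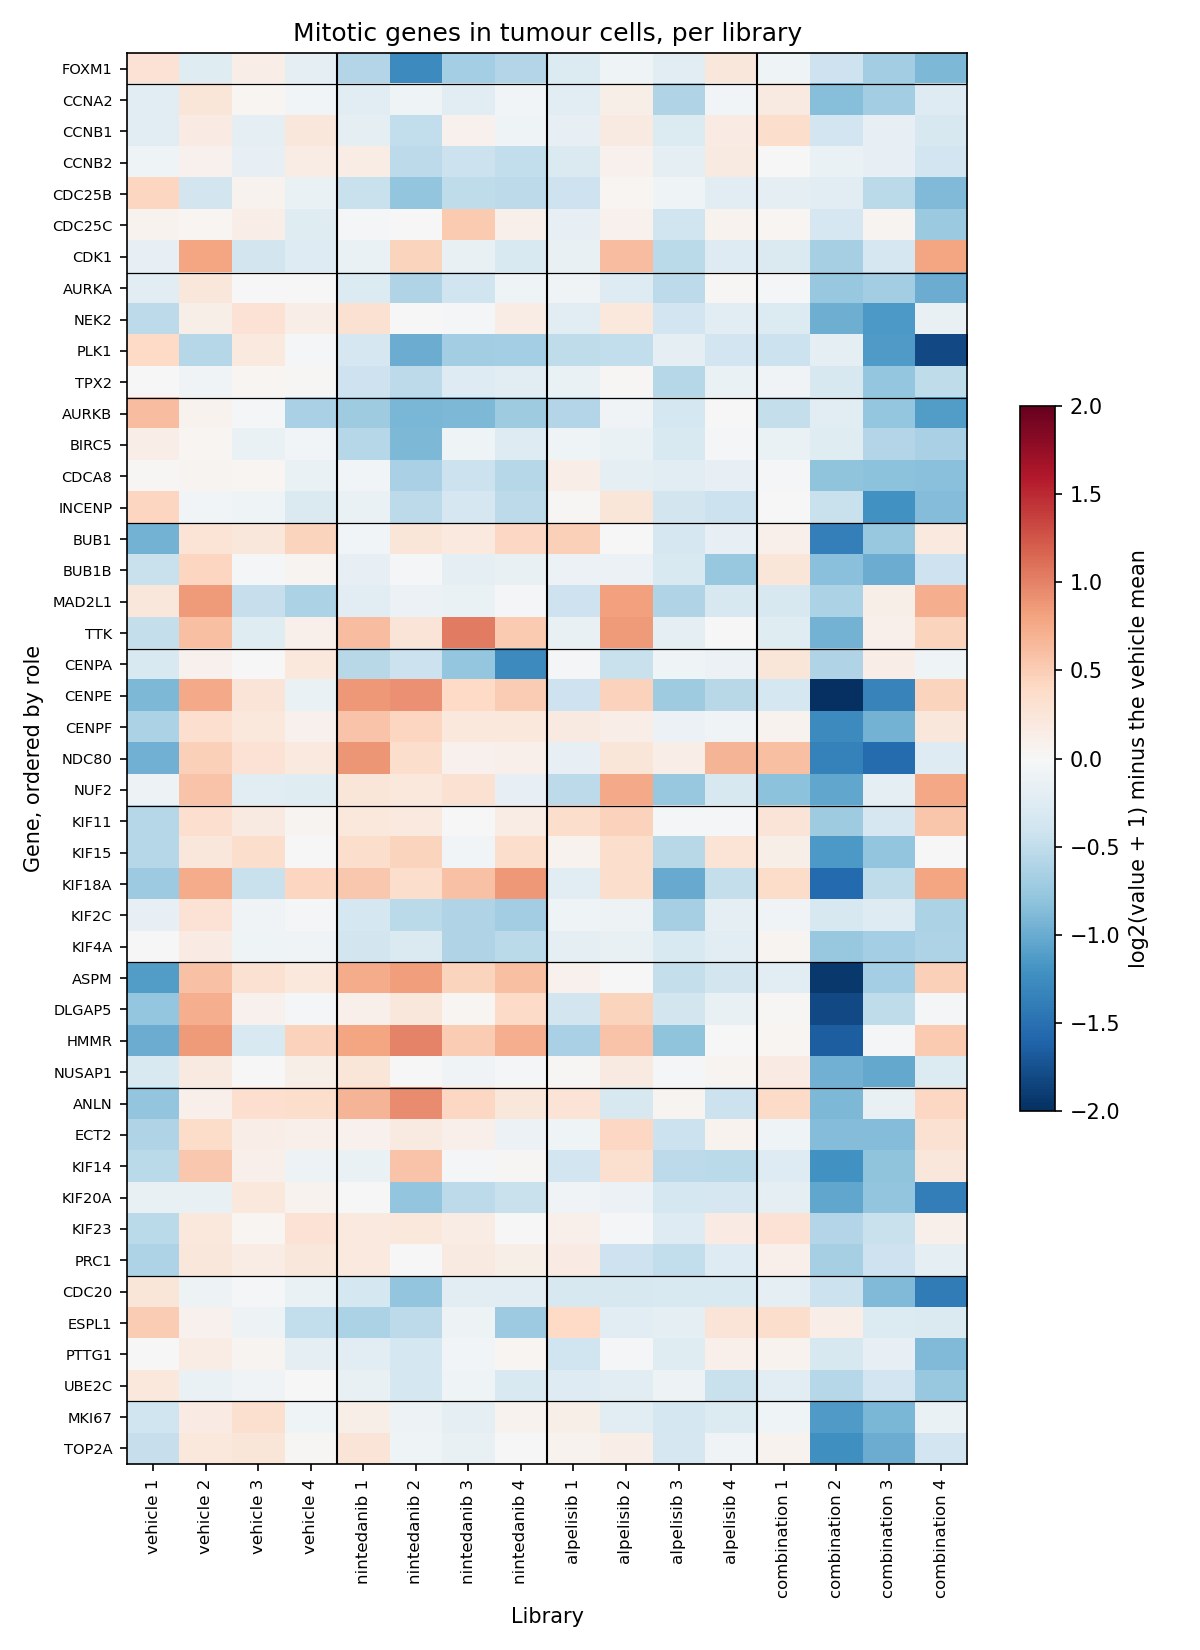
Heat map of log2(value + 1) minus the vehicle mean for the 45 mitotic genes (rows, grouped by role from transcription factor at the top to chromosome structure at the bottom) in the 16 libraries (columns); blue is below and red above the vehicle mean, and colours end at 2. Combination 2 and 3 are blue in most rows, combination 1 is near the vehicle mean, and the 4 nintedanib libraries are blue in some rows and red in others.

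Mitotic genes were lower with both drugs than with vehicle across all functional classes, and no single gene passed the adjusted threshold. The log2 difference was below 0 for 45 of 45 genes, against 46.5% of all genes tested, and its median was -0.45, against 0.03 for all genes. With an unadjusted p under 0.05 in limma, 18 of the 45 were lower, against 3.69% of all genes, and 0 were higher, against 4.47%. In 5 genes, TPX2, BIRC5, KIF20A, CDC20 and UBE2C, all 4 combination libraries lay below all 4 vehicle libraries, against 1.08% of all genes. At an adjusted p under 0.05, limma called 0 of the 45 and 0 of all genes, and the smallest adjusted p among the 45 was 0.445. The median was -0.28 without combination 2 and -0.60 without combination 1, and the count of 18 was 9 without combination 3. The number below 0 was 37 without combination 2 and 38 without vehicle 2. Without nintedanib 4 and combination 1, the libraries with muscle transcripts, the median was -0.60, 26 genes were lower with an unadjusted p under 0.05 and 44 were below 0.

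**Figure D2:**
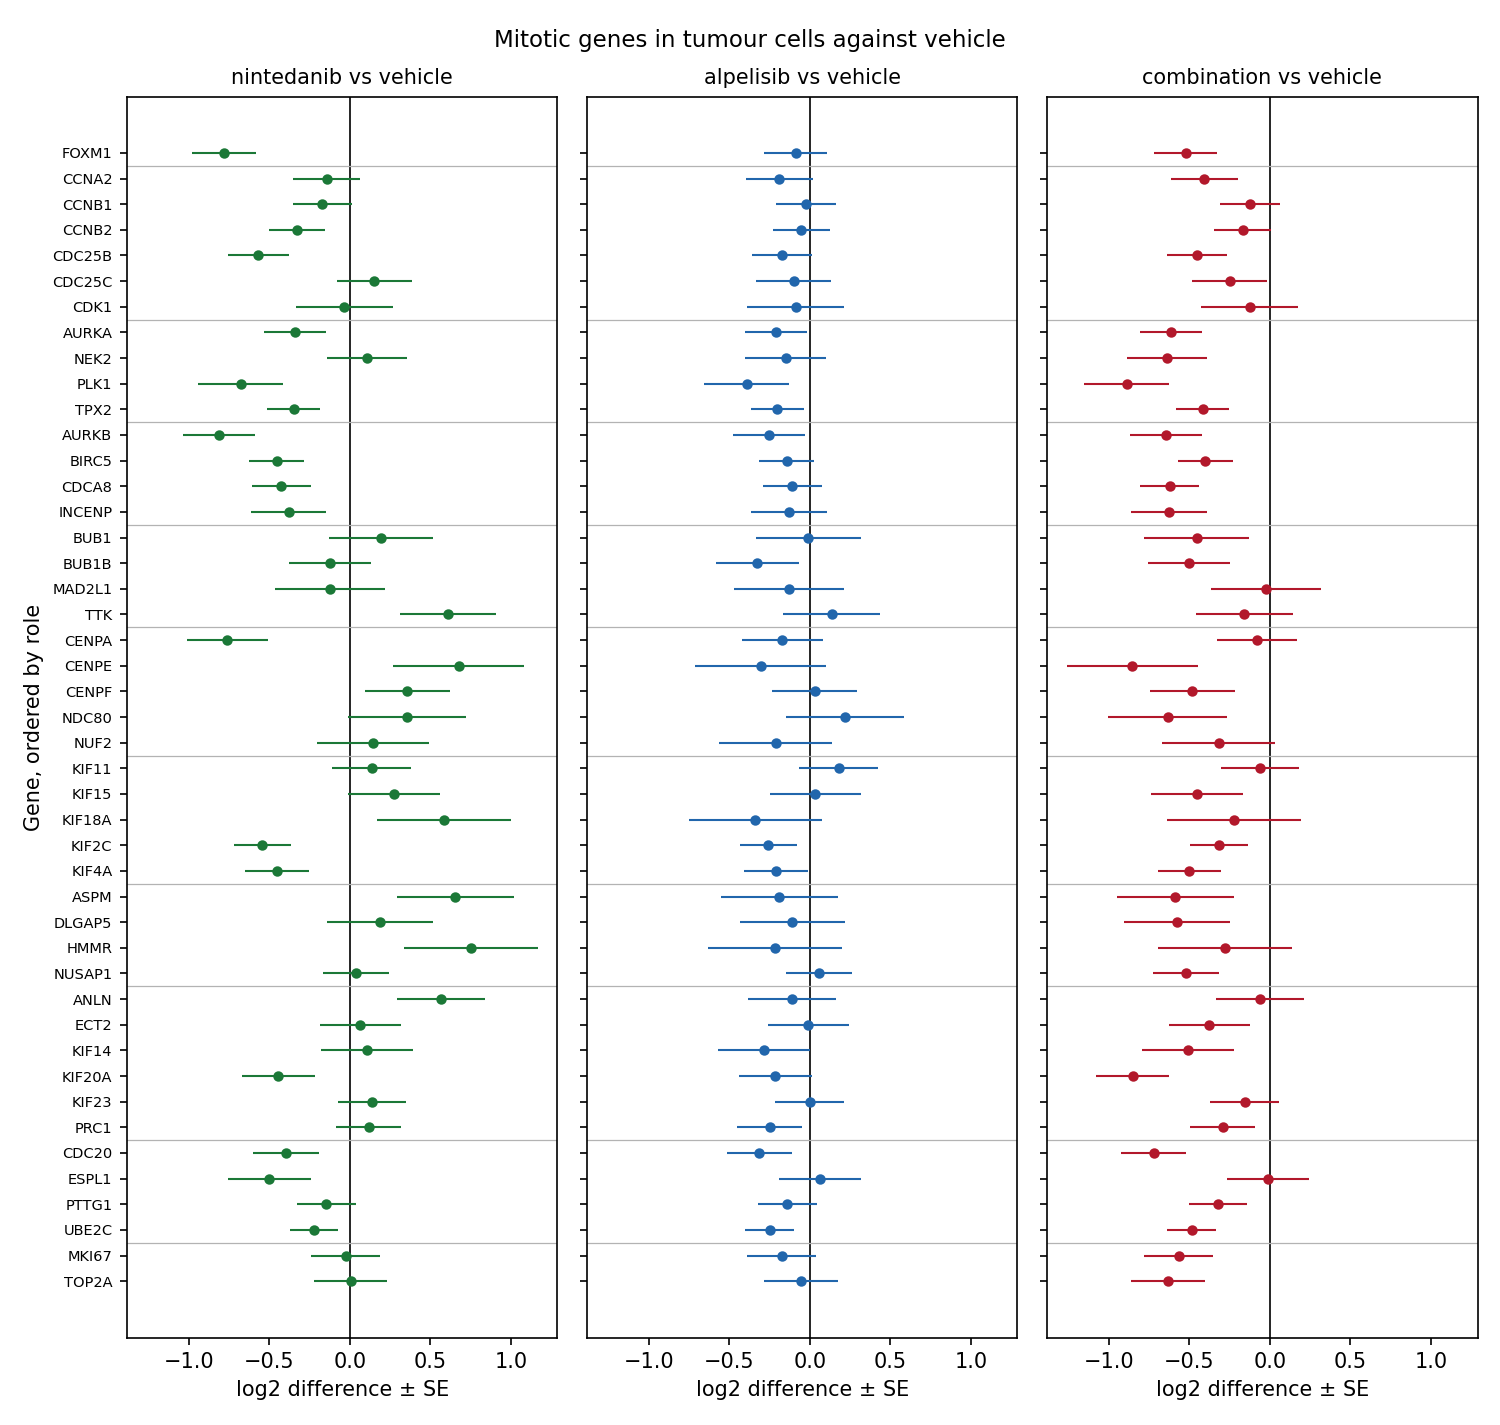
Log2 difference from vehicle ± SE (horizontal axis, limma, 4 libraries a group) of the 45 mitotic genes (vertical axis, by role) with nintedanib, alpelisib and both drugs. With both drugs all 45 points lie below 0, with nintedanib 24 do, and with alpelisib 38 do.

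FOXM1, the transcription factor that switches on many genes of the G2 and M phases, was lower in both groups given nintedanib. Its values in libraries 1 to 4, the order used for every gene here, were 1501, 1032, 1337 and 1082 with vehicle and 813, 505, 768 and 813 with nintedanib. They were 1014, 1154, 1050 and 1430 with alpelisib and 1154, 915, 756 and 658 with both drugs. All nintedanib libraries lay below all vehicle and all alpelisib libraries, while combination 1 lay among the vehicle libraries. The log2 difference from vehicle was -0.78 ± 0.197 (SE) with nintedanib, which had the smallest adjusted p of the 45 genes in that comparison (0.231, limma). It was -0.09 with alpelisib and -0.52 with both.

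The entry kinase, its cyclins and phosphatases had the smallest median difference of the classes with both drugs (-0.21). CDK1, the kinase that triggers entry into mitosis, stood at 309, 601, 270 and 291 with vehicle, 318, 473, 313 and 281 with nintedanib, 312, 531, 239 and 289 with alpelisib, and 283, 220, 275 and 602 with both. Each group held 1 library well above the other 3, and the ranges overlapped almost fully. CCNB1, its cyclin B partner, stood at 742, 969, 762 and 1005 with vehicle, 755, 614, 912 and 811 with nintedanib, 770, 978, 710 and 966 with alpelisib, and 1104, 664, 772 and 691 with both. Its highest value of all 16 came from combination 1 and its lowest from nintedanib 2. The differences with both drugs were -0.12 ± 0.30 (SE) for CDK1 and -0.12 ± 0.18 for CCNB1. CDC25B, the phosphatase that starts CDK1 activation at the centrosome, differed from this pattern: its 4 nintedanib libraries (1948 to 2494) lay below its 4 vehicle libraries (2618 to 4563). Its log2 difference was -0.57 ± 0.19 with nintedanib, -0.17 with alpelisib and -0.45 with both. Of the 6 genes in the class, CDC25B alone had an unadjusted p under 0.05 against vehicle with nintedanib or with both drugs.

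All 4 of the mitotic kinases and their activator had an unadjusted p under 0.05 with both drugs, and their median difference was -0.63. PLK1, the polo-like kinase needed for spindle assembly and exit from mitosis, stood at 2451, 1259, 2148 and 1843 with vehicle, 1482, 937, 1157 and 1164 with nintedanib, 1309, 1331, 1653 and 1436 with alpelisib, and 1383, 1651, 851 and 533 with both. Vehicle 2 lay among the treated libraries, and combination 3 and 4 lay below all others. Its difference from vehicle, -0.89 ± 0.26 (SE) with both drugs and -0.68 ± 0.26 with nintedanib, was the largest of the 45 genes in the former comparison (adjusted p 0.505, limma). AURKA, which matures the centrosomes, stood at 1102, 1488, 1267 and 1267 with vehicle and 1259, 755, 786 and 641 with both drugs, so that combination 1 was level with vehicle and the other 3 libraries were below it. Its 4 libraries ranged from 838 to 1205 with nintedanib and from 881 to 1292 with alpelisib, and both ranges overlapped with vehicle. TPX2, the microtubule protein that activates Aurora A, was even in the vehicle group (1710 to 1843), and both the nintedanib libraries (1249 to 1558) and the combination libraries (1050 to 1708) lay below it. NEK2, a kinase that separates centrosomes, was 0.11 with nintedanib and -0.64 with both, and its combination libraries (81.1 to 164) all lay below its nintedanib libraries (178 to 224).

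The chromosomal passenger complex corrects faulty attachments and later guides cytokinesis, and all 4 of its subunits were below 0 with nintedanib and with both drugs. AURKB, its kinase, stood at 1973, 1340, 1246 and 815 with vehicle, 779, 676, 683 and 781 with nintedanib, 854, 1219, 1004 and 1270 with alpelisib, and 922, 1102, 748 and 587 with both. The nintedanib libraries were close together and below every vehicle and alpelisib library, whereas the other groups overlapped. Its difference was -0.81 ± 0.22 (SE) with nintedanib (adjusted p 0.256, limma) and -0.65 ± 0.22 with both drugs. CDCA8 (borealin), a targeting subunit, stood at 942, 963, 949 and 844 with vehicle, 885, 590, 687 and 621 with nintedanib, 1011, 819, 785 and 823 with alpelisib, and 903, 529, 525 and 517 with both. In each group given nintedanib 3 libraries lay below all vehicle libraries and library 1 lay among them. INCENP, the scaffold, stood at 522, 371, 363 and 318 with vehicle, 353, 269, 305 and 268 with nintedanib, 392, 460, 300 and 288 with alpelisib, and 391, 283, 167 and 212 with both. Combination 1 again lay within the vehicle range, and the differences were -0.38 ± 0.23 with nintedanib and -0.63 ± 0.23 with both. BIRC5 (survivin) was -0.45 with nintedanib and -0.40 with both, and its combination libraries (1216 to 1740) lay just below its vehicle libraries (1748 to 2090).

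The 4 spindle checkpoint genes had no unadjusted p under 0.05 against vehicle in any treated group. MAD2L1, which inhibits CDC20 until attachment is complete, stood at 177, 274, 109 and 97.2 with vehicle, 130, 139, 137 and 146 with nintedanib, 113, 265, 98.4 and 120 with alpelisib, and 120, 97.1, 164 and 251 with both. The nintedanib libraries were close together inside a vehicle range that spanned them on both sides. Its difference with both drugs was -0.02 ± 0.34 (SE). TTK (MPS1), the kinase at the head of the checkpoint, was 0.61 with nintedanib and -0.16 with both, and its vehicle libraries (111 to 237) overlapped with both groups.

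Kinetochore genes ranged from -0.76 to 0.68 with nintedanib alone, the widest span of the classes in that comparison. CENPE, a kinetochore motor that carries chromosomes to the spindle equator, stood at 200, 635, 447 and 340 with vehicle, 678, 707, 495 and 533 with nintedanib, 279, 515, 227 and 254 with alpelisib, and 293, 82, 146 and 506 with both. The nintedanib group had the highest mean, vehicle 1 and alpelisib 3 were the lowest of their groups, and combination 2 was the lowest of all 16. Its difference was 0.68 ± 0.41 (SE) with nintedanib and -0.86 ± 0.41 with both. CENPF, a large kinetochore protein, was 0.36 with nintedanib and -0.48 with both, with combination values of 1858, 728, 918 and 2058 against 1137, 2218, 2054 and 1879 with vehicle. CENPA, the histone that marks centromeres, ran the other way: it was -0.76 with nintedanib, where all 4 libraries (55.5 to 101) lay below the vehicle libraries (110 to 158), and -0.08 with both. CENPE, CENPF and CENPA are described here because of their values and were not picked by the rule for named genes, and the same is true of TPX2, BIRC5, NEK2, TTK, BUB1B, KIF4A, KIF18A, DLGAP5, HMMR, NDC80, NUSAP1 and ASPM.

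Among the spindle motors, KIF2C (MCAK), which takes microtubules apart at centromeres, stood at 476, 654, 509 and 520 with vehicle, 420, 370, 354 and 332 with nintedanib, 507, 501, 338 and 471 with alpelisib, and 513, 431, 449 and 345 with both. Only the nintedanib group was clear of the vehicle range, with a difference of -0.54 ± 0.18 (SE), against -0.32 ± 0.18 with both drugs. KIF4A, a chromosome-bound motor, was below the vehicle range (224 to 267) in all 4 nintedanib libraries (157 to 195) and all 4 alpelisib libraries (194 to 216), and in 3 of the 4 combination libraries, which stood at 249, 141, 148 and 155. The spindle-associated proteins were all above 0 with nintedanib and all below 0 with both drugs. ASPM, which focuses the spindle poles, stood at 296, 967, 796 and 740 with vehicle, 1073, 1146, 875 and 969 with nintedanib, 677, 645, 463 and 494 with alpelisib, and 548, 168, 401 and 893 with both. Vehicle 1 lay far below the other vehicle libraries and combination 2 was the lowest of all, and the difference was 0.66 ± 0.36 with nintedanib and -0.59 ± 0.36 with both.

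KIF20A (MKLP2), the motor that brings the passenger complex to the midzone for cytokinesis, had the smallest p of the 45 genes with both drugs. It stood at 298, 297, 383 and 347 with vehicle, 329, 190, 228 and 241 with nintedanib, 315, 304, 258 and 262 with alpelisib, and 288, 160, 189 and 126 with both. All combination libraries lay below all vehicle libraries, though combination 1 by a small margin. The differences were -0.85 ± 0.23 (SE) with both drugs (adjusted p 0.445, limma), -0.44 ± 0.23 with nintedanib and -0.21 ± 0.23 with alpelisib. ANLN (anillin), the scaffold of the contractile ring, stood at 1256, 2346, 2745 and 2786 with vehicle, 3478, 4179, 2918 and 2543 with nintedanib, 2622, 1738, 2258 and 1619 with alpelisib, and 2844, 1164, 1971 and 2898 with both. The nintedanib group had the highest mean, and the combination spanned the whole vehicle range. Its difference was 0.56 ± 0.27 with nintedanib and -0.06 ± 0.27 with both, and its human and mouse values were correlated across the 16 libraries (r = 0.914), as were those of KIF23 (0.845) and ASPM (0.833). Reads were mapped to each genome separately, so reads counted for both species may be part of these values.

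All 4 genes of the anaphase trigger were below 0 with nintedanib and with both drugs, and 2 of them, CDC20 and UBE2C, had combination libraries that did not overlap with vehicle. CDC20, which activates the anaphase-promoting complex, stood at 2498, 1954, 2076 and 1921 with vehicle, 1652, 1210, 1797 and 1804 with nintedanib, 1678, 1689, 1691 and 1700 with alpelisib, and 1849, 1566, 1138 and 799 with both. Every treated library of every group lay below every vehicle library. Genes with such a lower group made up 3.22% of all genes with nintedanib, 0.685% with alpelisib and 1.08% with both drugs. The differences were -0.40 ± 0.20 (SE) with nintedanib, -0.31 ± 0.20 with alpelisib and -0.72 ± 0.20 with both (adjusted p 0.450, 1 and 0.505, limma). UBE2C, the ubiquitin-conjugating enzyme of that complex, stood at 1910, 1493, 1563 and 1635 with vehicle, 1489, 1290, 1540 and 1334 with nintedanib, 1380, 1424, 1531 and 1210 with alpelisib, and 1402, 1106, 1255 and 971 with both. Nintedanib and alpelisib libraries overlapped with the lower vehicle libraries, and the combination libraries were below all vehicle libraries, at -0.49 ± 0.15. ESPL1 (separase), the protease that opens cohesin rings, stood at 191, 143, 126 and 95.0 with vehicle, 86.1, 93.1, 125 and 80.8 with nintedanib, 177, 116, 119 and 160 with alpelisib, and 173, 148, 111 and 110 with both. Of the nintedanib libraries 3 lay below the lowest vehicle library, with a difference of -0.50 ± 0.26, and the difference with both drugs was -0.01 ± 0.26. The direction of ANLN, MAD2L1, ESPL1 and CDK1 with both drugs turned when single libraries were left out, and that of ANLN also turned with quantile normalization.

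TOP2A (topoisomerase II alpha), which untangles sister chromatids, stood at 3768, 5989, 6115 and 5280 with vehicle, 6218, 4896, 4703 and 5165 with nintedanib, 5441, 5681, 4115 and 4948 with alpelisib, and 5459, 2215, 2611 and 3978 with both. MKI67, the gene of the Ki-67 antigen used by pathologists to count cycling cells, stood at 2509, 3675, 4121 and 3092 with vehicle, 3584, 3066, 2900 and 3443 with nintedanib, 3572, 2857, 2592 and 2735 with alpelisib, and 3114, 1496, 1744 and 3018 with both. For both genes the single-drug groups overlapped with vehicle, combination 2 and 3 were the lowest of all 16 libraries, and combination 1 lay within the vehicle range. The differences with both drugs were -0.63 ± 0.23 (SE) for TOP2A and -0.57 ± 0.21 for MKI67. With nintedanib they were 0.01 and -0.02, and with alpelisib -0.05 and -0.17.

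**Figure D3:**
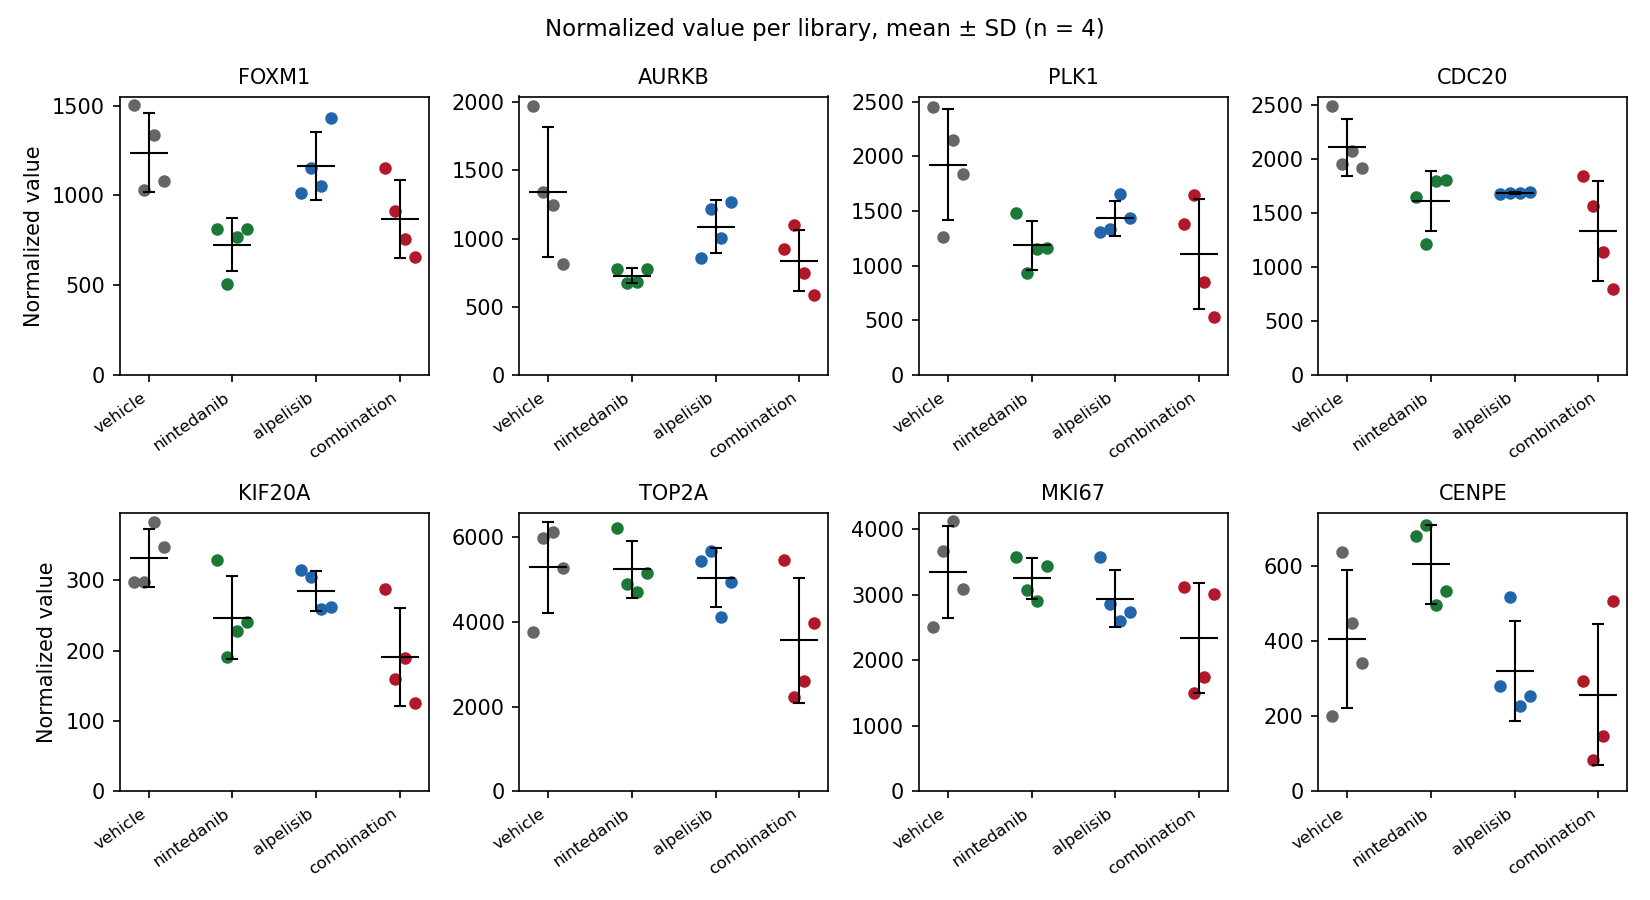
Normalized value per library (vertical axis, from 0) of 8 mitotic genes in the 4 treatment groups; points are libraries 1 to 4 from left to right, and bars give the mean ± SD (n = 4). FOXM1 and AURKB are lowest with nintedanib, TOP2A and MKI67 are low in combination 2 and 3, and CENPE is highest with nintedanib.

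Nintedanib alone gave differences of both signs. Its median difference from vehicle was -0.03, against 0.02 for all genes, with 24 of the 45 genes below 0 (48.2% of all genes). With an unadjusted p under 0.05, 10 were lower (4.70% of all genes) and 0 higher (6.88%), namely FOXM1, AURKB, CDC25B, KIF2C, CENPA, BIRC5, PLK1, CDCA8, KIF4A and TPX2. In 8 genes, FOXM1, CDC25B, TPX2, AURKB, CENPA, KIF2C, KIF4A and CDC20, the nintedanib libraries all lay below the vehicle libraries, against 3.22% of all genes. The count of 10 was 6 without nintedanib 2 and 16 when libraries were scaled to their human plus mouse reads. That scaling moves all human genes, and the share of all genes under it is not given here. Without nintedanib 4 and combination 1 the median was -0.05 and the count 12. The sign of the median was not stable: it was 0.07 without vehicle 2, 0.00 without nintedanib 3 and -0.15 without vehicle 1.

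The 24 genes below 0 with nintedanib had a median of -0.39 there, and the 21 above 0 a median of 0.19. This split was drawn from that comparison and is a description. The 21 held all 4 spindle-associated proteins (ASPM, DLGAP5, HMMR and NUSAP1), 4 of the 5 kinetochore genes and 5 of the 6 cytokinesis genes, while the 24 held FOXM1, the whole passenger complex and the whole anaphase trigger. Vehicle 1 was the lowest vehicle library for 19 of the 21 genes and for 7 of the 24, and without it 34 of the 45 genes were below 0 with nintedanib. The share of all genes below 0 without vehicle 1 is not given here, so the 34 shows only how far the split depends on that library. Adipocyte markers took 0.476% of mouse reads in vehicle 1, against at most 0.0312% in the other vehicle libraries. They took 0.0310%, 0.192%, 0.00330% and 0.327% in alpelisib 1 to 4, and at most 0.0448% with nintedanib and 0.0962% with both drugs. Their part in the result was not tested. The combination libraries were not used for the split, though their values are relative to the vehicle mean that was. Combination 2 averaged -1.18 for the 21 genes and -0.50 for the 24, whereas combination 4 averaged 0.16 for the 21 and -0.61 for the 24. Combination 4 was the lowest library of its group for 14 of the 24 genes and for 1 of the 21, and combination 2 was the lowest for 7 of the 24 and for 16 of the 21.

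Alpelisib alone gave small differences. The median was -0.14, against 0.01 for all genes, and 38 of the 45 genes were below 0 (48.9% of all genes). Limma gave 0 genes lower with an unadjusted p under 0.05 (0.793% of all genes) and 0 higher (1.69%), and PLK1 (-0.39), KIF18A (-0.34) and BUB1B (-0.33) were the lowest. KIF4A and CDC20 were the 2 genes whose alpelisib libraries all lay below vehicle, against 0.685% of all genes. The median was -0.07 without alpelisib 3, the library with the lowest value of its group for 29 genes, and -0.09 without vehicle 2, and 1 gene was lower with an unadjusted p under 0.05 without vehicle 1, vehicle 2 or vehicle 4.

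Most of the 45 genes were lower with the combination than with each drug alone. Against nintedanib 35 of the 45 genes were below 0 (49.2% of all genes), with a median of -0.32. With an unadjusted p under 0.05, 14 were lower (5.24% of all genes) and 1, CENPA at 0.68, was higher (4.03%). The lowest were CENPE (-1.53 ± 0.41 SE), ASPM (-1.24 ± 0.36), HMMR (-1.03) and NDC80 (-0.99). NEK2 and DLGAP5 were the 2 genes with groups that did not overlap (1.66% of all genes). The count of 14 was 24 without combination 1, 4 without combination 2 and 8 without combination 3, and without both nintedanib 4 and combination 1 it was 19, with a median of -0.49. Without combination 4, limma called CENPE (-1.96, adjusted p 0.0228), ASPM (-1.60, adjusted p 0.0367) and CENPF (-1.07, adjusted p 0.0486), and combination 4 lay above the vehicle mean for each of these 3. Against alpelisib 41 of the 45 genes were below 0 (48.6% of all genes), with a median of -0.28. With an unadjusted p under 0.05, 0 were higher (4.71% of all genes) and 8 were lower (3.74%), namely NDC80 (-0.85), KIF20A (-0.64), TOP2A (-0.58), NUSAP1 (-0.58), CDCA8 (-0.51), INCENP (-0.49), FOXM1 (-0.44) and AURKA (-0.40), and 0 had groups that did not overlap (1.49% of all genes). At an adjusted p under 0.05, limma called 0 of the 45, against 0.00566% of all genes. The count of 8 at an unadjusted p was 15 without combination 1, 5 without alpelisib 4, 3 without alpelisib 2 and 2 without combination 3, and the median was -0.14 without combination 2. Without both nintedanib 4 and combination 1, the median was -0.41 and 15 genes were lower at an unadjusted p under 0.05.

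Whether the drugs together differed from the sum of their separate differences was asked with an interaction term (combination minus nintedanib minus alpelisib plus vehicle, in log2). Its median over the 45 genes was -0.16, against -0.00 for all genes, and 32 were below 0 (50.3% of all genes). With an unadjusted p under 0.05, CENPE (-1.23), NDC80 (-1.21), TTK (-0.90), CENPF (-0.87) and NUSAP1 (-0.61) were lower (3.72% of all genes) and CENPA (0.85) was higher (2.51%), and the smallest adjusted p in limma was 0.781. The count of 5 ranged from 0 to 8 when single libraries were left out. It was 0 without vehicle 1, nintedanib 1 or combination 2, 1 without combination 3, 2 without alpelisib 1 or 2, and 3 without vehicle 4, nintedanib 2, 3 or 4, or alpelisib 4, and it was 8 without combination 4. The median was -0.06 without combination 2, -0.10 without nintedanib 1, -0.11 without alpelisib 2 and -0.30 without combination 1. Without both nintedanib 4 and combination 1 it was -0.33, and 6 genes were lower at an unadjusted p under 0.05. FOXM1, AURKB and CDC20 had interactions of 0.35 ± 0.28 (SE), 0.42 ± 0.32 and -0.01 ± 0.29. The negative median of the 45 was not shared by the 57 other mitotic genes described further below. Their interaction median was 0.08, with 21 below 0 (50.3% of all genes). For the 25 genes of G1/S and replication it was 0.26, with 6 below 0. Core subunits of the anaphase-promoting complex had a median of -0.04, and DREAM and MuvB regulators 0.09. Comparisons of 1 drug with and without the other use separate libraries. Over the 45 genes, the difference made by nintedanib without alpelisib and with it had r = 0.00 (Spearman rho -0.01), with 22 genes below 0 in both, 2 above 0 in both, and 19 below 0 only with alpelisib present. For alpelisib without and with nintedanib, r was -0.03 (rho -0.03), with 29 genes below 0 in both. These are correlations across genes measured in the same libraries, and genes are not independent replicates.

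**Figure D4:**
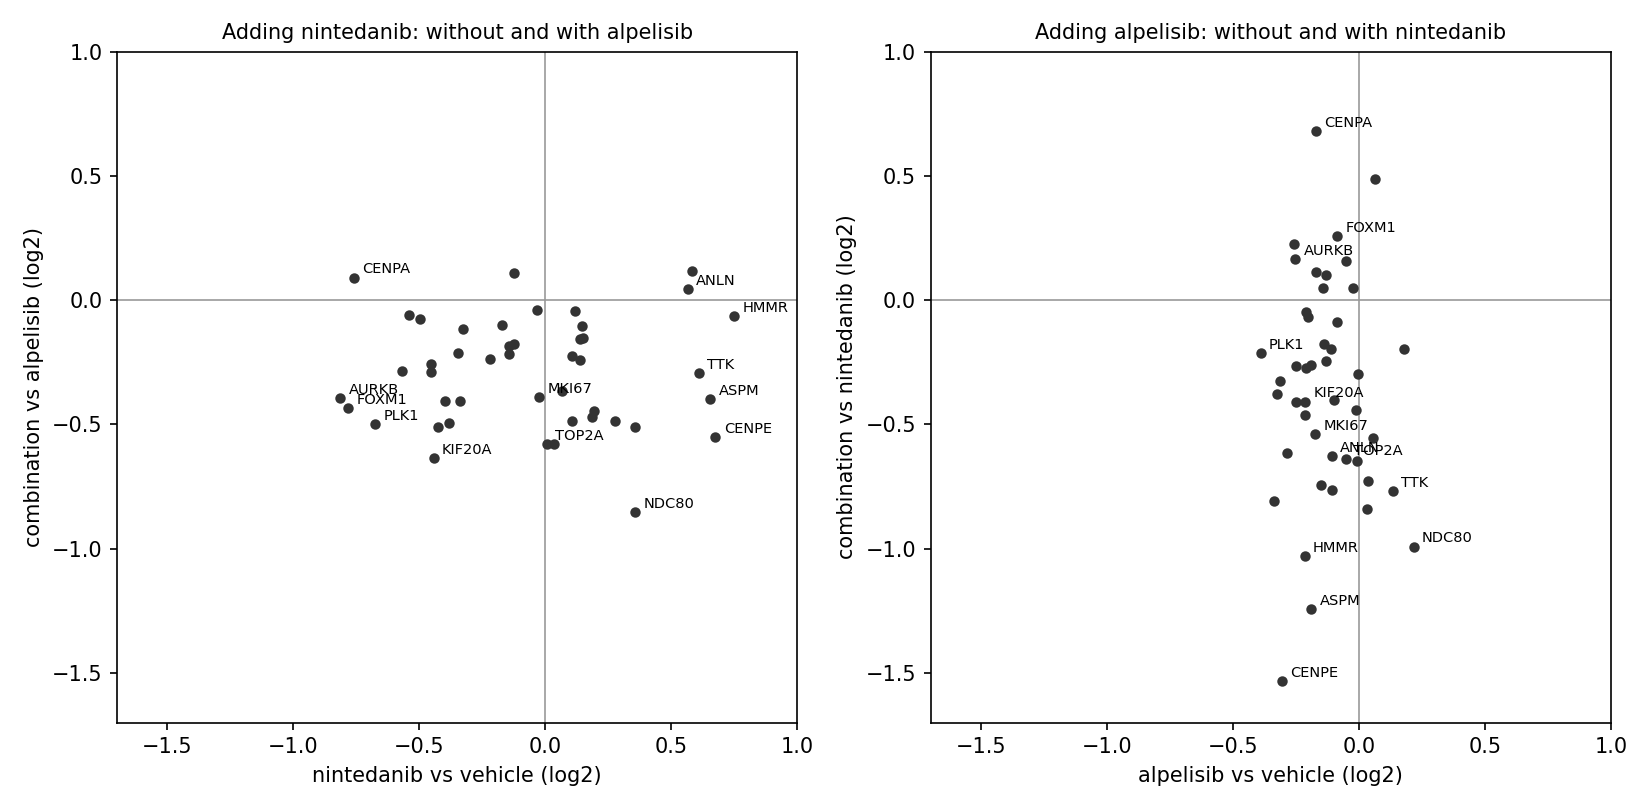
Log2 difference of each of the 45 mitotic genes when a drug was given alone (horizontal axis) and when it was added to the other drug (vertical axis), for nintedanib (left) and alpelisib (right). On the left 41 of 45 points lie below 0 on the vertical axis and 24 on the horizontal; on the right CENPE and ASPM are lowest and CENPA is highest.

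Averaged over alpelisib (8 libraries with nintedanib against 8 without), 37 of the 45 genes were below 0 (45.8% of all genes), with a median of -0.18. With an unadjusted p under 0.05, 14 were lower (6.96% of all genes) and 0 higher (7.20%). The median was -0.11 without combination 2, and without both nintedanib 4 and combination 1 it was -0.26 with 16 genes lower. FOXM1 was the lowest at -0.61 ± 0.14 (SE), with an adjusted p of 0.153 in limma, followed by AURKB (-0.60), PLK1 (-0.59), KIF20A (-0.54), CDCA8 (-0.47) and INCENP (-0.44). The call for FOXM1 depended on the procedure. Of 28 alternatives, FOXM1 passed the adjusted threshold only in those given next, and it did not pass with edgeR or limma-voom. Its adjusted p was 0.0239 with DESeq2 (log2 difference -0.60), 0.0346 in limma without nintedanib 4 and combination 1 (-0.71), and 0.0484 in limma on values scaled to the human plus mouse total (-0.66). AURKB passed with DESeq2 (-0.63, adjusted p 0.0409), and CDCA8 passed in limma without nintedanib 4 and combination 1 (-0.54, adjusted p 0.0488). Averaged over nintedanib, alpelisib gave a median of -0.25 with 40 genes below 0 (48.5% of all genes) and 11 lower with an unadjusted p under 0.05 (1.93% of all genes) and 0 higher (2.21%), led by CENPE (-0.92), ASPM (-0.72) and HMMR (-0.62). FOXM1 stood at 0.09 and AURKB at -0.04 in that comparison. The count of 11 was 18 without both nintedanib 4 and combination 1 (median -0.31), 22 without combination 1 alone, 5 without any 1 of nintedanib 1, alpelisib 3 or combination 3, 6 without combination 2, and 7 without any 1 of vehicle 2, vehicle 3, vehicle 4 or alpelisib 4.

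The 4 combination libraries were not alike. Averaged over the 45 genes, they stood at -0.02, -0.82, -0.60 and -0.25 relative to the vehicle mean, against -0.26, 0.24, 0.03 and -0.00 in the vehicle libraries, 0.02, -0.11, -0.08 and -0.09 with nintedanib, and -0.13, 0.09, -0.35 and -0.13 with alpelisib. Combination 2 and 3 lay below every other library, combination 4 was close to the lowest vehicle library, and combination 1 was within the vehicle range. In combination 2, 40 of the 45 genes lay below all 4 vehicle libraries, against 20.4% of all genes. The numbers were 27 in combination 3 (19.8% of all genes), 19 in combination 4 (24.2%) and 6 in combination 1 (12.5%). Nintedanib libraries had 14 to 19 such genes (17.3% to 21.5% of all genes) and alpelisib libraries 7 to 17 (12.6% to 17.3% of all genes). Combination 1 was the highest of its group for 27 genes and the lowest for 0. The median SD of the 45 genes on the log2 scale was 0.358 with vehicle, 0.192 with nintedanib, 0.264 with alpelisib and 0.534 with both drugs, against 0.276, 0.221, 0.232 and 0.360 for the 8639 genes with a mean level at least that of the lowest of the 45. Mouse immune markers took 0.331%, 0.757%, 0.436% and 0.208% of mouse reads in combination 1 to 4, and 0.610% in nintedanib 4. Mouse reads made up 31.5%, 27.0%, 30.7% and 20.5% of all reads in combination 1 to 4. The part of these host values in the spread was not tested.

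**Figure D5:**
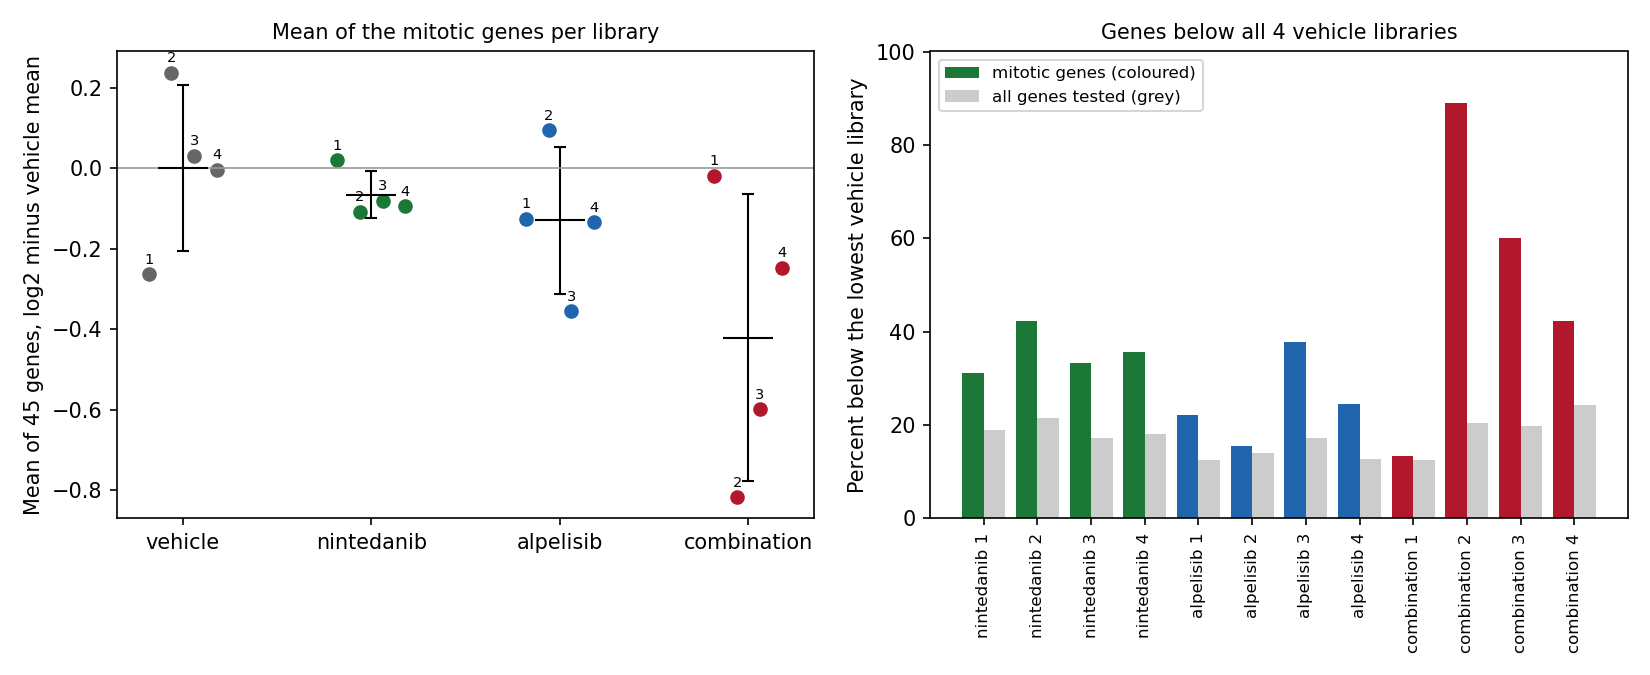
Left, mean of the 45 mitotic genes per library (vertical axis, log2 relative to the vehicle mean), with numbered libraries as points and bars for the mean ± SD (n = 4). Right, percent of the 45 genes (coloured) and of all genes tested (grey) that lay below all 4 vehicle libraries; combination 2 is highest with 40 of 45 genes, and combination 1 is lowest with 6.

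Further genes of the cell cycle were read beside the 45. Of 57 other mitotic genes, 53 were below 0 with both drugs (46.5% of all genes), with a median of -0.36, and 15 were lower with an unadjusted p under 0.05 (3.69% of all genes). With nintedanib alone 41 were below 0 (48.2% of all genes), with a median of -0.24, and 14 were lower (4.70% of all genes), among them GTSE1 (-0.87 ± 0.185 SE), a microtubule-binding protein of G2, CDCA3 (-0.75 ± 0.212), which triggers degradation of WEE1, and CCNF (-0.59 ± 0.181), the cyclin F ubiquitin ligase subunit. Against nintedanib the combination had a median of only -0.08 in these 57 genes, with 34 below 0 (49.2% of all genes). Against alpelisib the median was -0.195, with 49 below 0 (48.6% of all genes). The 25 genes of G1/S and replication had a median of -0.24 with both drugs, with 7 lower (3.69% of all genes), and of -0.41 with nintedanib alone, with 14 lower (4.70%). Against nintedanib the combination had a median of 0.22 in this list, with 5 higher (4.03% of all genes) and 1 lower (5.24%). MCM2, a subunit of the replicative helicase, was -0.69 ± 0.224 with nintedanib and -0.70 ± 0.224 with both. The next list was drawn up from core subunits of the anaphase-promoting complex, the enzyme that CDC20 activates, and the co-activator FZR1. Its 14 genes had a median of 0.01 with both drugs, with 0 lower (3.69% of all genes) and 1, ANAPC4 (0.66), higher (4.47%). The list of 14 DREAM and MuvB regulators, which also holds the NF-Y genes NFYA, NFYB and NFYC, had a median of 0.08 with both drugs and no unadjusted p under 0.05. No gene of these lists passed the adjusted threshold in limma, where the smallest adjusted p with both drugs was 0.396.

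The mouse-mapped table held 44 of the 45 genes by symbol. With both drugs 37 of the 44 host genes were below 0 (46.9% of all mouse genes, median -0.41), 11 lower with an unadjusted p under 0.05 (3.39% of all mouse genes), and averaged over alpelisib nintedanib gave a median of -0.36 with 14 lower (4.40% of all mouse genes). Host Ube2c had the smallest p in that averaged comparison (-0.98 ± 0.194 SE, adjusted p 0.0574, limma). With both drugs host Nek2 was higher than with vehicle (1.26 ± 0.586 SE, unadjusted p 0.0442, adjusted p 0.627, limma). It had only 123 reads over the 16 libraries, and with a pseudocount of 0.1 its unadjusted p was no longer under 0.05. Mouse reads made up a median of 7.72% of the reads of both species for a gene, from 1.68% for Aurkb to 43.2% for Cenpa, against 25.0% of all reads. Human and mouse values of a gene had an r from -0.425 (NEK2) to 0.914 (ANLN) across libraries. Reads counted for both species may be part of the host differences, and their part was not tested.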

How the data were processed

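RNA of ScaBER xenografts was read in 16 3′ mRNA libraries (QuantSeq) on a NextSeq500, per the labels' protocols. The number of separate tumours is not given. Per the submitters' processing notes, the aligner was TopHat and the genomes were hg19 and mm10. How reads were counted, on which annotation and strand, and how libraries were scaled is not given in the sources used here. The deposited tables, one for human-mapped and one for mouse-mapped reads, hold a signal, the normalized expression value that the authors made. In each library 100% of values were whole multiples of 1 step within 0.01 read, so whole reads could be recovered. Depth was 8303617 to 18568119 human reads per library. Reads without molecular identifiers are not counts of molecules.

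The plan's branch for normalized values was followed. Values were tested as log2(value + 1) in limma 3.58.1 (lmFit, eBayes with trend; R 4.3.3), with 1 mean per group over all 16 libraries, on genes that reached a value of 1 in 4 or more libraries (17663 human, 17484 mouse). Benjamini-Hochberg adjustment ran over all genes tested, with a threshold of 0.05. There were 8 comparisons. Counts at an unadjusted p under 0.05 are descriptions beside the same share of all genes. The shares given for comparisons are those of the main fit, and counts under the alternatives have no share of their own here. Recovered reads were also tested with DESeq2 1.42.0, limma-voom and the quasi-likelihood test of edgeR 4.0.16, and the steps were tested on simulated data. Other alternatives were a pseudocount of 0.1, no filter, a value of at least 10, quantile normalization, scaling to human plus mouse reads, no trend, a replicate block, only the groups compared, leaving out nintedanib 4 and combination 1, leaving out genes with correlated human and mouse values, and leaving out each library. Genes named with all values were the 10 with the smallest p for both drugs against vehicle, the 4 with the smallest for nintedanib against vehicle and for nintedanib averaged over alpelisib, the 3 with the largest p for both drugs, and FOXM1, CCNB1, CDK1, TOP2A and MKI67, which came to 18 genes. The 45 genes and all lists were chosen with earlier results of these data known. Promoter motifs were planned but not analysed here, and no sequence or coordinates are given.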

Additional observations from a re-analysis of the deposited data

Results flagged for a closer look

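In 76 groups of 4 libraries, 6 held 1 library far from the other 3 of its group (by Dixon's criterion for 4 values), and chance marks about 1 group in 20. CDCA8 stood at 1010.9 in alpelisib 1, against 784.96 to 823.1 in the other alpelisib libraries. CDCA8 also stood at 902.68 in combination 1, against 517.29 to 528.55 in the other 3 combination libraries. FOXM1 was lowest in nintedanib 2 at 505.35, with the others at 767.54 to 813.27. MAD2L1 reached 265.34 in alpelisib 2, where the others lay at 98.361 to 120.43. CDK1 reached 601.15 in vehicle 2 (others 269.96 to 308.67) and 602.16 in combination 4 (others 219.7 to 282.74).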

How the results depend on the processing

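Of 672 values for named genes under the alternatives, 652 kept their direction and side of the threshold, 15 turned and 5 newly passed. With both drugs ANLN was 0.0092 with quantile normalization and MAD2L1 was 0.0752 without nintedanib 4 and combination 1. Leaving out each library gave -0.33 to 0.22 for ANLN, -0.28 to 0.26 for MAD2L1, -0.18 to 0.16 for ESPL1 and -0.43 to 0.14 for CDK1.

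Numbers of genes lower with an unadjusted p under 0.05 moved by more than 1.5 times as follows. Scaling to human plus mouse reads gave 16 for nintedanib, 2 for alpelisib, 0 for the interaction and 6 for alpelisib averaged over nintedanib. Limma without the trend gave 4 for the combination against alpelisib, 0 for the interaction and 4 for averaged alpelisib. Without nintedanib 4 and combination 1 there were 15 against alpelisib and 18 for averaged alpelisib. EdgeR gave 5 and DESeq2 4 against alpelisib, and 1 and 0 for the interaction. Quantile normalization gave 1 for the interaction, and the fit of only the groups compared gave 1 for alpelisib. For nintedanib averaged over alpelisib, genes past the adjusted threshold numbered 1 on the human plus mouse scale, 2 with DESeq2 and 2 without nintedanib 4 and combination 1. The shares of all genes under these alternatives are not given here, and the cause was not tested.

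Leaving out each library gave medians of -0.15 to 0.07 (6 to 13 genes lower) for nintedanib, -0.21 to -0.07 (0 to 1) for alpelisib, -0.60 to -0.28 (9 to 26) for both drugs, -0.47 to -0.27 (4 to 24, and 0 to 3 past the adjusted threshold) against nintedanib, -0.41 to -0.14 (2 to 15) against alpelisib, -0.30 to -0.06 (0 to 8) for the interaction, -0.25 to -0.11 (11 to 17) for averaged nintedanib and -0.30 to -0.22 (5 to 22) for averaged alpelisib.

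Same-numbered libraries of different groups had a median r of -0.04 over 24 pairs (-0.548 to 0.514). Libraries of other numbers had a median r of -0.0006 over 72 pairs (-0.696 to 0.767). Of 16 libraries, 5 were closest to one of their own number. The labels do not say what a shared number means, and shared batches were not tested. With a replicate block the numbers of lower genes were 17 for both drugs, 9 for nintedanib, 14 against nintedanib, 7 against alpelisib and 2 for the interaction. The planned count of promoter motifs, with its shorter window, was not run. Depth limits CENPA, KIF18A and HMMR most, with 33, 42 and 45 reads in their lowest libraries.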
